A study of Mus musculus with 2 samples.

Results

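G6pc2, Spc25 and Abcb11 are 3 genes that lie side by side on mouse chromosome 2, and their RNA was followed here in isolated islets, the hormone-secreting part of the mouse pancreas, from the strains CAST/EiJ (CAST) and C57BL/6J (B6). The members were all transcripts listed under the 3 Ensembl gene identifiers, 17 transcripts out of 94545 listed and 3 genes out of 38924. They were selected on position and on their expected counts and transcript shares in these same libraries, so that the strain differences below describe the libraries and were not tested. CAST is a wild-derived inbred strain of the subspecies castaneus, and B6 is the strain whose genome serves as the mouse reference. Mice of both strains were male, 10 weeks old and fed standard chow, and while the islets of both were being purified the buffer held 16.7 mM glucose. Islets of 2 mice were pooled per strain and 250 islets went to RNA, which gave 1 library per strain and no measure of the spread between mice.

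G6pc2 encodes the islet-specific catalytic subunit of glucose-6-phosphatase, an enzyme of the endoplasmic reticulum that returns glucose-6-phosphate to glucose and so works against the trapping of glucose in the beta cell. Spc25 encodes a subunit of the Ndc80 complex, which joins chromosomes to spindle microtubules at the kinetochore in dividing cells. Abcb11 encodes the bile salt export pump, an ATP-driven transporter best known from the canalicular membrane of hepatocytes. In humans the G6PC2 and ABCB11 region is known for variants associated with fasting glucose.

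The main difference in structure between the G6pc2 transcripts is exon 4, and its sequence is given because the strains differed in how often it was included. G6pc2 (ENSMUSG00000005232, chromosome 2, plus strand, 69211073 to 69227841, GRCm38) has 4 annotated transcripts. G6pc2-201, with 5 exons, encodes 355 amino acids. G6pc2-202 has the same coding exons except exon 4 (chr2:69225812-69225927), whose 116 bases are not a multiple of the codon length, and its reading frame ends after 154 amino acids. Both stretches below run over chr2:69223024-69226592, from the last 20 bases of exon 3 to base 25 of exon 5. Capitals mark exon 4 in the longer form and, in the shorter form, the stop codon that the shifted frame meets in exon 5. The sequences are those of the reference genome, from GENCODE M21.
G6pc2-201, exon 4 included: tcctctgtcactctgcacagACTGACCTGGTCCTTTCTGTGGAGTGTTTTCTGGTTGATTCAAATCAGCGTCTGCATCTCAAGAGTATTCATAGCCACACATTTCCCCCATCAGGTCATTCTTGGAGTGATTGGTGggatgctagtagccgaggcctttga
G6pc2-202, exon 4 left out: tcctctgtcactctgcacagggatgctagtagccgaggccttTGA

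The libraries held 104324631 expected counts for CAST and 76600903 for B6. Islet hormones dominated both, and the 12 genes of a beta cell list, insulin genes included, summed to 557400 TPM (the share of transcript molecules on the usual scale) in CAST and 489700 TPM in B6. Acinar genes, which come from the exocrine tissue around the islets, took 1.85% of counts in CAST and 0.539% in B6 over a list of 14 genes, and 11 of these were at least 2-fold higher in CAST, where 9.17% of all 17282 genes with 20 or more counts were. The 8 genes of an alpha cell list summed to 39370 TPM in CAST and 65980 TPM in B6. The part of these differences in the ratios below was not tested.

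G6pc2 was among the most abundant genes of the islet in both strains and was lower in CAST. It had 145794 expected counts and 834.8 TPM in CAST, against 155224 counts and 1398 TPM in B6, which placed it 56th by TPM in CAST and 29th in B6 among all 38924 genes. TMM factors adjust for depth and for library-wide composition, but not for cell content. Scaled by them, G6pc2 was 1.30-fold higher in B6, a log2 ratio (CAST over B6) of -0.38. The 95% interval of -0.39 to -0.37 covers counting error only. On the TPM scale the log2 ratio was -0.74, a scale on which the all-gene median stood at -0.26, and relative to the median the difference was -0.48 by TPM and -0.40 with TMM factors. In RNA from whole islets, fewer cells of a type and less RNA per cell cannot be told apart.

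**Figure D1:**
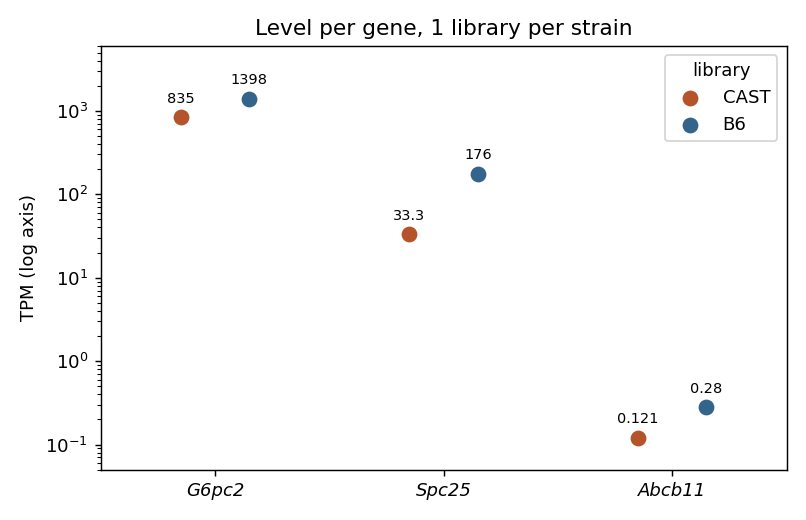
Level of each gene in TPM (log axis) in the CAST library (left point) and the B6 library (right point), 1 library per strain and therefore no error bars. G6pc2 stands at 834.8 and 1398 TPM, Spc25 at 33.27 and 176.4 TPM and Abcb11 at 0.121 and 0.280 TPM, each lower in CAST.

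Most of the lower G6pc2 total in CAST lay in the transcript without exon 4. G6pc2-202 had 73786.94 expected counts and 439.5 TPM in CAST, against 103177.24 counts and 954.8 TPM in B6, and was 1.71-fold higher in B6 (log2 -0.77, interval -0.79 to -0.76). G6pc2-201, the form with exon 4, had 72001.46 counts and 395.1 TPM in CAST and 52044.4 counts and 443.6 TPM in B6. Its log2 ratio was 0.18 with TMM factors, 0.02 with total-count scaling and -0.17 by TPM, so that its direction depended on the scaling. Relative to the median of all genes it was 0.16, 0.16 and 0.10. The ratio of the form with exon 4 was above that of the form without it. A scaling moves both forms alike, so their order could not differ among the 3 scalings.

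Within the gene, the proportion of the forms does not depend on how the libraries are scaled. The form with exon 4 made up 47.3% of the TPM of both forms together in CAST and 31.7% in B6. By expected counts it was 49.4% in CAST (exact Clopper-Pearson interval 49.13 to 49.64) and 33.5% in B6 (33.29 to 33.76). There were 1.11 transcripts without exon 4 for each one with it in CAST, and 2.15 in B6. The shift of 15.6 percentage points stands against a background in which 27.5% of 8976 genes, each with several transcripts and at least 100 counts per library, had a transcript share that shifted by at least 10 points. RSEM, the authors' quantification tool, divides reads between transcripts by a model, and the error of that division is not in these intervals. The shorter form has no base of its own. It is told from the longer one by reads over the junction of exons 3 and 5 and by the reads missing from exon 4. The longer form also starts further upstream, with 27 bases that no other transcript holds, so reads at the 5′ end enter the division too. Reads of CAST carry strain variants against the B6 reference, and whether these move reads between the forms was not tested.

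The other annotated G6pc2 transcripts were almost unseen. G6pc2-203, a noncoding form that starts upstream at 69211073 in the gap between Spc25 and the main G6pc2 start, had 0 counts in both libraries. G6pc2-204, a noncoding form of 2 exons, had 5.72 counts in CAST and 1.93 in B6. Nearly every count of the gene was therefore assigned to transcripts that start between 69219971 and 69219998, which lie 13777 bases from the start of Spc25-201 at the least distance.

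**Figure D2:**
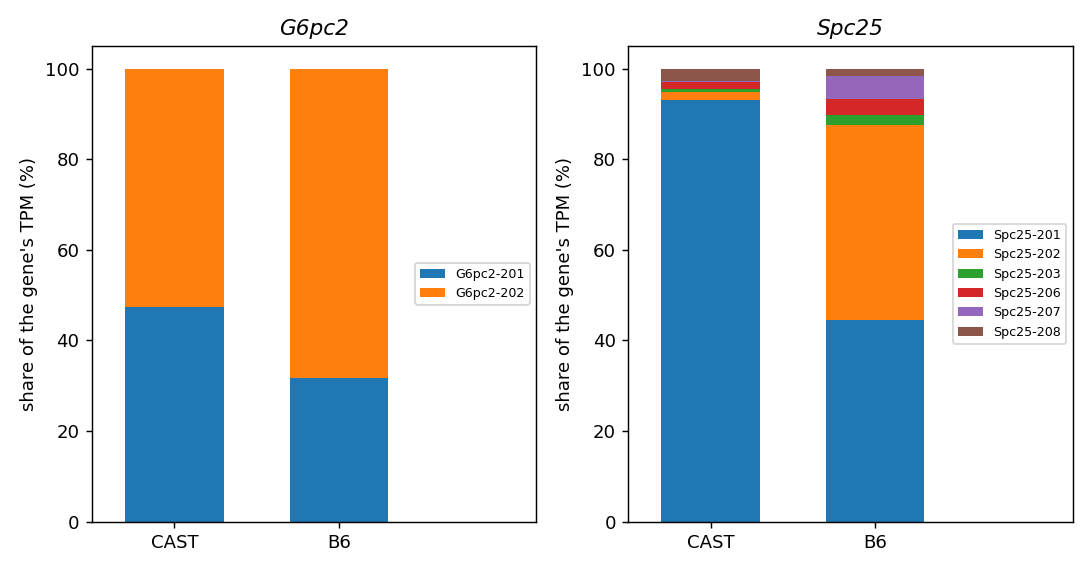
Share of each annotated transcript in the TPM of its gene, in percent, with the CAST library left and the B6 library right, for G6pc2 and Spc25; transcripts under 0.1% in both libraries are not drawn. G6pc2-201, the form with exon 4, holds 47.33% in CAST and 31.72% in B6, and Spc25-201 holds 93.02% in CAST and 44.55% in B6.

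G6pc2 was by far the main glucose-6-phosphatase gene of these islets. G6pc, the catalytic subunit of liver and kidney, had 1 count in CAST and 2 in B6, at or under the floor of 3 counts. G6pc3, the subunit expressed in most tissues, had 26.50 TPM in CAST and 28.90 TPM in B6, and the TPM of G6pc2 was 31.5 times that of G6pc3 in CAST and 48.4 times in B6. Slc37a4, which encodes the transporter that carries glucose-6-phosphate into the endoplasmic reticulum, had 9266 counts in CAST and 5673 in B6 (log2 0.42, 0.37 to 0.47). The related transporter genes Slc37a1 and Slc37a3 were at log2 -0.11 and 0.23, and Slc37a2 had 30 counts in CAST and 57 in B6.

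Slc2a2, the main glucose transporter gene of mouse beta cells, was higher in CAST (92474 counts in CAST, 48825 in B6, log2 0.63), and so was the transporter gene Slc2a1 (1439 counts in CAST, 766 in B6, log2 0.62). Hk2, a hexokinase gene, had 305 counts in CAST and 47 in B6 (log2 2.40), and Slc2a3 189 in CAST and 436 in B6 (log2 -1.49). Of the 14 genes of glucose cycling with 20 or more counts over both libraries, G6pc2 included, 2 were 2-fold or more higher in CAST and 2 likewise in B6, against backgrounds of 9.17% and 8.12% of 17282 genes. Without G6pc2 their median log2 ratio was 0.27, and the median of all genes at this filter was 0.01.

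Genes that mark beta cells ran both ways between the strains, several further from 0 than G6pc2, and G6pc2 at -0.38 stood below each of the 12 listed. Their log2 ratios ran from -0.30 for Glp1r, the receptor gene of the incretin GLP-1, to 0.74 for Trpm5, a cation channel gene, and by TPM from -0.64 for Glp1r to 0.28 for Slc2a2. Slc30a8, the zinc transporter gene of the insulin granule, had 103194 counts in CAST and 82199 in B6 (log2 0.04), and Iapp, the islet amyloid gene, was at -0.01. In an alpha cell list, 6 of 8 genes were below 0, as were 48.8% of all genes at this filter, and the median was -0.67. The glucagon gene Gcg was at -0.36, and Pou3f4, a transcription factor gene with 96 counts in CAST and 28 in B6, was at 1.47. For delta and PP cells 4 of 6 were below 0, with a median of -0.57.

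Transcription factor genes of the islet, among them several that bind the G6pc2 promoter, were mostly somewhat lower in CAST. Of 12 genes 9 had a log2 ratio below 0, against 48.8% of all genes at this filter, and the median was -0.21. Against 17.3% of all genes, none of the 12 was 2-fold apart in either direction. Rfx6, needed for islet cell development, was lowest, with 8520 counts in CAST and 13625 in B6 (log2 -0.97, -1.01 to -0.93), and Isl1 followed at -0.63. Neurod1, a basic helix-loop-helix factor that binds E-boxes, had 17103 counts in CAST and 20262 in B6 (log2 -0.53), and Pdx1 and Foxa2 were at -0.21 and -0.22. At the upper end were Mafa, an activator of the insulin genes, at 0.19 and Pax6 at 0.07. Without TMM factors they had 180.4 and 181.6 TPM in CAST against 201 and 196.2 TPM in B6. Their log2 ratios by TPM, -0.16 and -0.11, still lay above the all-gene median on that scale, -0.22 at this filter.

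The promoter at the RefSeq start of G6pc2 is shown because the form with exon 4 starts in this window. The form without it is annotated from 69219998, just past the end of the window. The stretch chr2:69219699-69219978 (plus strand, RefSeq, GRCm38.p6) runs from 250 bases before to 30 bases after the RefSeq start. Capitals mark the E-box CANNTG, whose letters read alike on both strands.
G6pc2 promoter: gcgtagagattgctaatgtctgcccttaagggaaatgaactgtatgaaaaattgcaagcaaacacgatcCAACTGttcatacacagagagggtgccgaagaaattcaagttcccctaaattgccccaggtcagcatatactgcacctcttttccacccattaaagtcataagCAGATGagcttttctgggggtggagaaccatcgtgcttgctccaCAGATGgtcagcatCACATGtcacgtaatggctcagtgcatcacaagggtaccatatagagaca
It holds 4 matches, at positions -181, -78, -34 and -20 from the start. Of 32851 RefSeq promoter windows of this length 70.1% hold at least 1 match and 5.4% hold 4 or more. A match in the reference sequence is a description, and the CAST sequence of this stretch was not used here.

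Spc25 was lower in CAST by a larger factor than G6pc2. Spc25 (ENSMUSG00000005233, chromosome 2, minus strand, 69193895 to 69206194) had 4138 expected counts and 33.27 TPM in CAST, against 14638 counts and 176.4 TPM in B6, which placed it 2001st by TPM in CAST and 322nd in B6. It was 4.32-fold higher in B6 (log2 -2.11, -2.16 to -2.06), and the log2 ratio was -2.37 by TPM. Among the 14768 genes that had at least 100 counts in total, 7.18% were 2-fold or more higher in CAST and 5.99% in B6, and 1.33% were 4-fold or more higher in B6. The TPM of Spc25 was 3.99% of that of G6pc2 in CAST and 12.6% in B6. A search of all annotated transcripts found no other gene with 95% identity to a stretch of 200 or more bases of any of the 3 genes, so near-identical copies do not share their reads at that limit.

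The difference in Spc25 was unequal among its transcripts. Spc25-201 and Spc25-202 encode the same 226 amino acids and differ in the untranslated exon at the 5′ end, which in Spc25-202 runs on into the neighbouring intron. Spc25-201 had 3960.31 counts and 30.94 TPM in CAST, against 6471.96 counts and 78.59 TPM in B6, and was 1.997-fold higher in B6 (log2 interval -1.06 to -0.94). Spc25-202 had 92.18 counts and 0.633 TPM in CAST, against 7107.17 counts and 75.86 TPM in B6, and was 93.6-fold higher in B6 (log2 -6.55, -6.87 to -6.26). The forms were near parity in B6, with 1.04 transcripts of Spc25-201 for each Spc25-202, whereas in CAST there were 48.9. A stretch of 181 bases belongs to no other annotated transcript of the gene, so that Spc25-202, unlike the short G6pc2 form, has sequence of its own to be counted by.

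The remaining Spc25 transcripts followed the same direction. Spc25-203, a noncoding form with 1276 bases of its own, had 29.13 counts in CAST and 460.82 in B6 (log2 -4.25, -4.87 to -3.74). Spc25-207, an incomplete coding form that also keeps part of the intron behind the leading exon, had 2.66 counts in CAST and 345.95 in B6. The noncoding Spc25-206 had 26.54 in CAST and 199.94 in B6, and the noncoding Spc25-208, which holds only the 5′ end of the gene, 27.0 in CAST and 50.32 in B6 (log2 -1.17, -1.91 to -0.47). Of 9 listed transcripts 6 had 20 or more counts over both libraries, and of these 6 were below 0, 5 at least 2-fold and 4 at least 4-fold higher in B6. Spc25-207 reached 20 counts only through B6, so its place among those higher in B6 followed from the filter. Over all 17282 genes at this filter 48.8% were below 0. At least 2-fold higher in B6 were 8.12% and at least 4-fold 2.04%. These shares are of whole genes, and no such share was computed over single transcripts, so the 2 are not like for like. The 6 transcripts divide the reads of 1 gene, so their common direction is not 6 separate observations. Spc25-204 and Spc25-209 had 0 counts in both libraries, and Spc25-205 had 0 in CAST and 1.92 in B6. The share of Spc25-201 in the gene's TPM shifted by 48.5 percentage points, to 93.0% in CAST against 44.6% in B6. A shift of 30 points or more was found in 3.09% of 8976 genes with several transcripts. As for G6pc2, RSEM's division error is not known and the part of strain variants was not tested.

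The level of Spc25 was far above that of the genes whose proteins it works with. The 4 genes of the Ndc80 complex are Spc25, Spc24, Ndc80 and Nuf2. Spc24 had 1.03 TPM in CAST and 1.33 TPM in B6, Ndc80 had 0.619 TPM in CAST and 0.442 TPM in B6, and Nuf2 had 0.903 TPM in CAST and 0.334 TPM in B6. Spc25 was thus 32.4 times the highest of its partners in CAST and 133 times in B6. None of the partners was 2-fold higher in B6, where 8.12% of all genes with 20 or more counts were. Ndc80 was at log2 0.82 (0.38 to 1.29), Nuf2 at 1.84 (1.36 to 2.36) and Spc24 at -0.02 (-0.40 to 0.36), each from fewer than 200 counts per library.

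Across 18 kinetochore genes Spc25 ranked 2nd by TPM in CAST, after Zwint, and 1st in B6. Zwint, whose product is known at the kinetochore and which is also expressed in neurons, had 49.53 TPM in CAST and 79.68 TPM in B6 (log2 -0.32). Without Spc25 the 17 others had a median log2 ratio of 0.16, from -0.38 (Cenpk) to 1.84 (Nuf2), and none was 2-fold or more higher in B6, where the background was 8.12%. Genes of dividing cells were low in both libraries. The 18 proliferation genes summed to 13.03 TPM in CAST and 15.17 TPM in B6, and no member exceeded 2.10 TPM in CAST or 1.93 TPM in B6. Against 17.3% of all 17282 genes with 20 or more counts, none of the 18 was 2-fold apart. Their median log2 ratio was 0.30, and -0.05 by TPM, where the all-gene median at this filter was -0.22. The TPM ratio has 1 TPM added, more than the level of most of these genes, which draws it towards 0. Ube2c (0.80) and Bub1 (0.75) were at the upper end among them, and Bub1b (-0.78) and Aurka (-0.68) at the lower end. In both libraries the TPM of Spc25 alone exceeded the sum of these 18 genes.

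**Figure D3:**
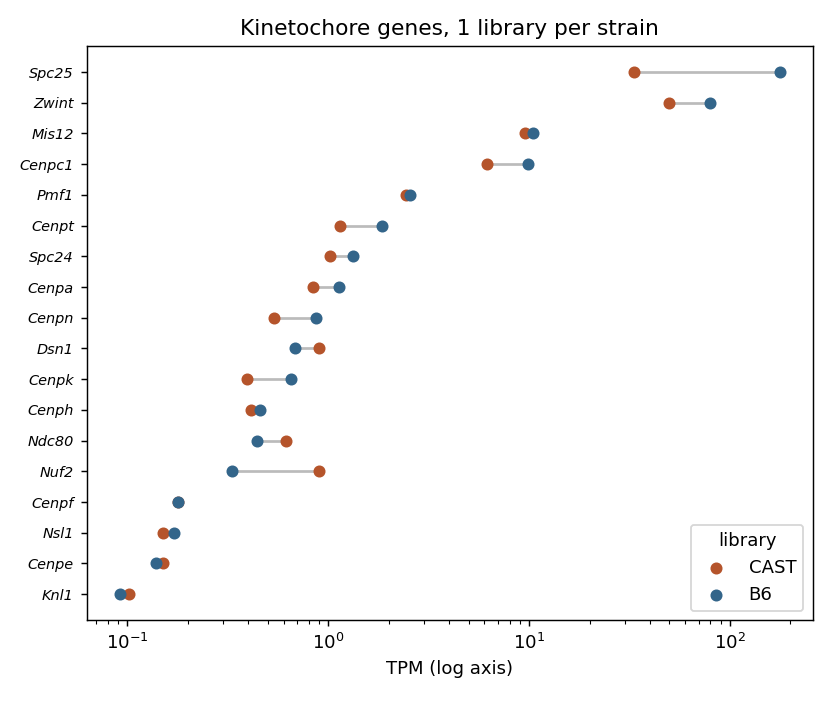
TPM (log axis) of 18 kinetochore genes in the CAST and B6 libraries, ordered by the B6 value, with a grey line joining the 2 values of a gene. Spc25, at 33.27 TPM in CAST and 176.4 TPM in B6, lies far to the right of its Ndc80 complex partners Spc24, Ndc80 and Nuf2, which lie between 0.334 and 1.33 TPM.

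The Spc25 promoter is shown for comparison with that of G6pc2, since both genes are abundant here and only one is a cell division gene. The stretch chr2:69206184-69206463 (minus strand, RefSeq, GRCm38.p6) again runs from 250 bases before to 30 bases after the start. Capitals mark CCAAT, the letters bound by NF-Y, and TTTGAA, the letters of the cell cycle homology region found at promoters of mitotic genes. Both were searched on both strands and do not overlap here.
Spc25 promoter: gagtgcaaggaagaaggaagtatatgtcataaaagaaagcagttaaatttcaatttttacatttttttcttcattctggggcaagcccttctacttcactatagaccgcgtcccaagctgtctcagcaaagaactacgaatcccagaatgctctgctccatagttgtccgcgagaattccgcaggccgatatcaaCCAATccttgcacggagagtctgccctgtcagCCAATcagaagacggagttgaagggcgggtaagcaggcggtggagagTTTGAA
CCAAT occurs at -55 and -23 and TTTGAA at position 25 of the transcript. At least 2 matches to CCAAT are held by 11.1% and at least 1 to TTTGAA by 17.2% of the 32851 windows, and 1.88% hold both together. No E-box CANNTG is in this window, and neither CCAAT nor TTTGAA is in that of G6pc2.

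Abcb11 was barely detected in islets of either strain. Abcb11 (ENSMUSG00000027048, chromosome 2, minus strand, 69238282 to 69342616) had 19 expected counts in CAST (exact Poisson interval 11.4 to 29.7), against 75 counts in B6 (59.0 to 94.0). It had 0.121 TPM in CAST and 0.280 TPM in B6, and with 94 counts it passed the filter of 20 but not that of 100. It was 4.71-fold higher in B6 with TMM factors (log2 -2.24, -3.08 to -1.53), where 8.12% of 17282 genes with 20 or more counts were at least 2-fold and 2.04% at least 4-fold higher in B6. The TPM in CAST was 43.1% of that in B6, and with 1 TPM added, more than either level, the log2 ratio was -0.19. The short noncoding form Abcb11-203 held 76.59% of the gene's TPM in CAST and 16.06% in B6.

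Nearly all B6 counts belonged to the coding transcript. Abcb11-202, which encodes 1321 amino acids, had 13.7 counts in CAST and 73.34 in B6 (log2 -2.66, -3.61 to -1.83). Abcb11-203, a noncoding form of 648 bases at the 3′ end, had 5.3 counts in CAST and 1.66 in B6, too few for a direction (log2 1.18, -1.58 to 4.43). The other 2 coding forms had 0 counts. Each coding form overlaps an exon of the antisense gene Gm13613 by 136 bases. Gm13613 itself had 21 counts in CAST and 49 in B6 (log2 -1.49, -2.32 to -0.75). The strand setting was not given in the sources used here, so within that overlap reads of the gene and its antisense partner cannot be told apart. With only transcripts free of such overlap, Abcb11-203 alone was left, and the log2 ratio turned to 0.89 on 5 counts in CAST and 2 in B6.

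The other genes of bile acid transport were mostly at low counts and without a common direction. Besides Abcb11, 8 of those listed had 20 or more counts, 4 above and 4 below a log2 ratio of 0. The hepatocyte uptake transporter genes Slc10a1, Slco1b2 and Slco1a1 had 0, 3 and 9 counts in CAST and 1, 0 and 2 in B6. Slco1a4 had 5 in each library, and the ileal transporter gene Slc10a2 had 0 in both. Abcc2, another canalicular export pump gene, had 74 counts in CAST and 166 in B6 (log2 -1.45, -1.87 to -1.05), and Abcc3, a basolateral one, 187 in CAST and 239 in B6 (-0.64). Abcb4, the phospholipid transporter gene and nearest relative found by sequence, had 1039 counts in CAST and 698 in B6 (0.28, 0.15 to 0.43). Nr1h4, which encodes the bile acid receptor FXR, an activator of Abcb11 in liver, had 8.71 TPM in CAST and 10.50 TPM in B6 (log2 0.08, -0.03 to 0.18). The log2 ratios of 10 other ABCB family genes ran from -0.48 to 0.54. A list of 12 hepatocyte markers summed to 18.39 TPM in CAST and 29.29 TPM in B6. Tat, a liver enzyme gene, gave 10.53 TPM in CAST and 23.07 TPM in B6, Apoa2, an apolipoprotein gene, 6.627 TPM in CAST and 4.633 TPM in B6, and Alb, the albumin gene, 0.507 TPM in CAST and 0.511 TPM in B6. The ratios ran both ways, with Apob, another apolipoprotein gene, at 134 counts in CAST and 14 in B6, and Serpina1a, a protease inhibitor gene, at 0 in CAST and 33 in B6. Their part in the Abcb11 ratio was not tested. In CAST 1 of the 12 and in B6 3 of the 12 had 0 counts.

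Along the chromosome, log2 ratios below 0 were found for the 3 genes and for Nostrin, Cers6 and Stk39 on one side. On the other side Bbs5 and Fastkd1 were slightly below 0. In order of position the genes run Cers6, Nostrin, Spc25, G6pc2, Abcb11, Dhrs9 and Lrp2. The ends of Nostrin and Spc25 are 4564 bases apart, and those of G6pc2 and Abcb11 10440. Nostrin, which encodes a protein that binds endothelial nitric oxide synthase, had 449 counts in CAST and 818 in B6 (log2 -1.15, -1.32 to -0.99). Cers6, a ceramide synthase gene, had 2562 in CAST and 2989 in B6 (-0.51, -0.59 to -0.43), and Stk39, a kinase gene, was at -0.21. All 10 genes of an endothelial and fibroblast list were above 0, where 48.8% of all genes with 20 or more counts were below 0. Plvap was at 0.49 and Cdh5 at 0.48, and 4 of the 10 were at least 2-fold higher in CAST, against 9.17% of all genes. The part of cell content in the Nostrin ratio was not tested. On the far side of Abcb11, Dhrs9 had 1 count in CAST and 0 in B6, and Lrp2, an endocytic receptor gene, 10 in CAST and 2 in B6. Beyond them Bbs5, Fastkd1 and Ppig were at log2 -0.06, -0.03 and 0.17. Of 12 protein coding neighbours, 6 on each side, 8 had 100 or more counts. Of these 5 were below 0, as were 48.3% of all genes at this filter, and Nostrin alone was at least 2-fold higher in B6, where 5.99% of all genes were. At 4932414N04Rik and 4933409G03Rik there were at most 5 counts per library, Klhl41, with 72 counts in CAST and 38 in B6, was at log2 0.63 and B3galt1 at 0.29.

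**Figure D4:**
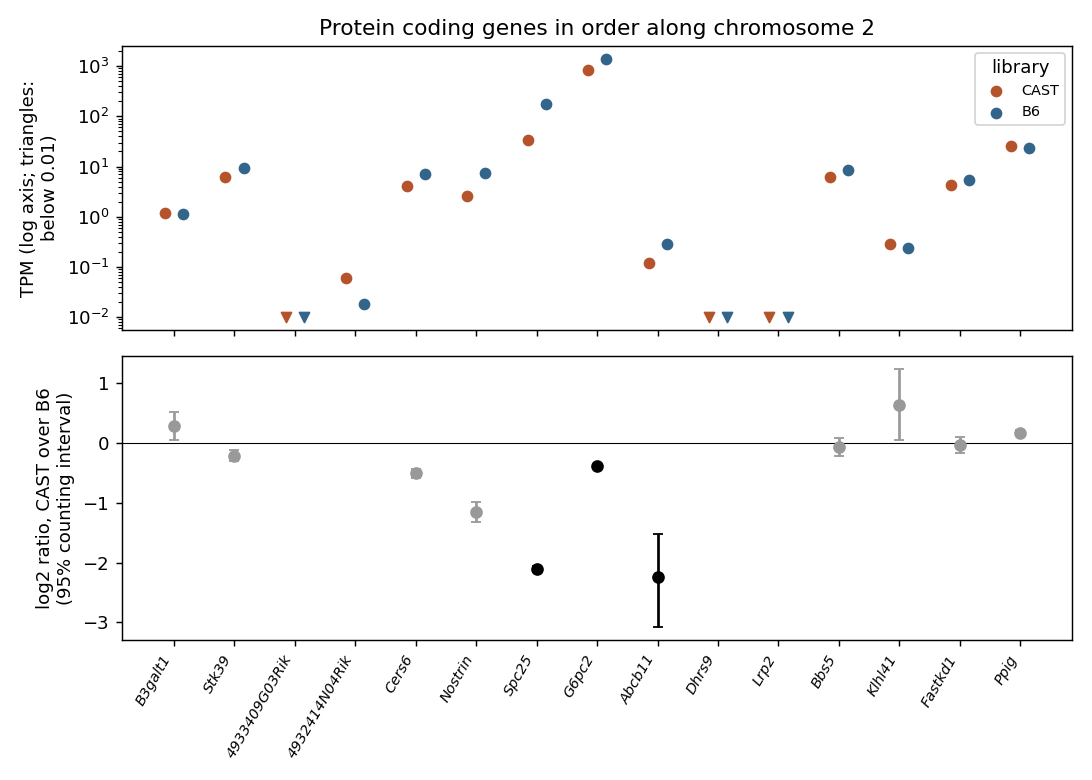
TPM (log axis, upper panel) and log2 ratio of CAST over B6 with its 95% counting interval (lower panel) for 15 protein coding genes in their order along chromosome 2, at equal spacing and not to distance; ratios are drawn for genes with 20 or more counts, black for G6pc2, Spc25 and Abcb11. From Stk39 to Abcb11 the drawn ratios lie below 0, with Spc25 at -2.11 and Abcb11 at -2.24, and from Bbs5 to Ppig they lie between -0.06 and 0.63.

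In the distribution over all genes, the ratio of G6pc2 lay near the centre, and those of Spc25 and Abcb11 lay in its lower tail. Of 14768 genes with 100 or more counts 13.2% were at least 2-fold apart, 1061 higher in CAST and 885 higher in B6. The share of these that were higher in CAST was 54.5% with TMM factors, 44.2% with total counts and 38.6% by TPM. In level alone, the protein coding genes nearest to G6pc2 over the 2 libraries, by distance in log2(TPM + 1), were Ftl1 (0.217), Fos (0.275) and mt-Nd6 (0.329). Nearest to Spc25 were Fam183b (0.369), with 42.95 TPM in CAST and 166.2 TPM in B6, then Fkbp1b and Ndufs5. For Abcb11 they were Cnga3, Trim17 and Kcnd3, all under 0.3 TPM.

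**Figure D5:**
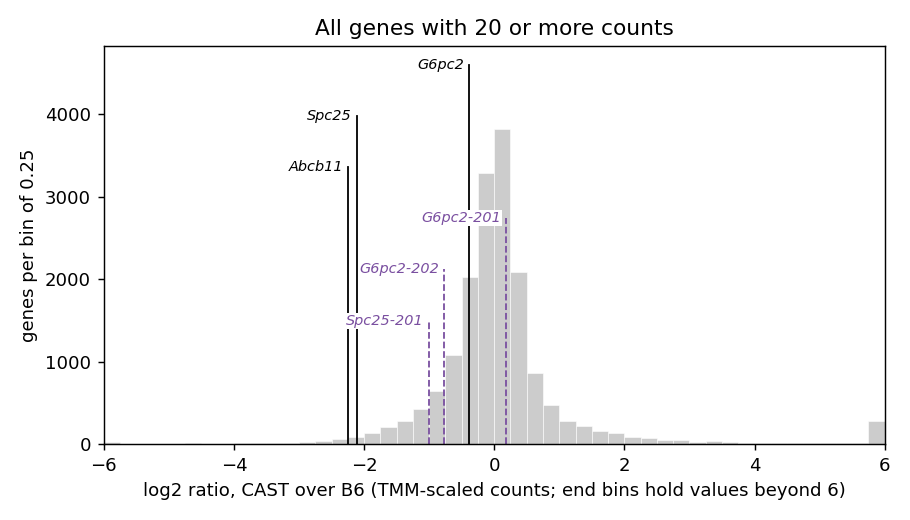
Number of genes per bin of log2 ratio of CAST over B6 (TMM-scaled counts, 17282 genes that passed the filter of 20 counts, end bins hold more extreme values), with solid lines at the 3 genes and dashed lines at 3 of their transcripts; line heights carry no value. G6pc2 at -0.38 lies near the centre, G6pc2-201 at 0.18 and G6pc2-202 at -0.77 on either side of it, and Spc25 at -2.11 and Abcb11 at -2.24 in the lower tail.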

How the data were processed

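Each deposited file lists 94545 Ensembl transcripts without a header. The expected counts per transcript were made by the authors with RSEM on GRCm38, per the submitters' processing notes; no version, annotation release or strand setting was given in the sources used here. The other deposited value is a fraction, which sums to 1 per library and, multiplied to the usual scale, is TPM. For the members with 100 or more counts, count over fraction gave back the annotated transcript lengths of GENCODE M21 within 0.040%. Of 38924 gene identifiers 37607 matched M21.

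Gene counts are sums of expected counts, rounded. TMM factors (edgeR 4.0.16, R 4.3.3) were 0.947 for CAST and 1.06 for B6, from all genes. Log2 ratios have 0.5 added to each scaled count. Intervals are exact Clopper-Pearson (95%) or Poisson, and like the floor of 3 counts per library they reflect counting error alone. Several reads can come from 1 molecule, so they can be too narrow even for that. With 1 library per strain no test was made. The computation was tested on simulated data. Copies were searched with blastn 2.17.0. Scripts ran in Python 3.11.15 (pandas 2.3.3, matplotlib 3.10.9, scipy 1.17.1, numpy 2.4.6).

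The members, gene lists and alternatives were chosen with earlier results of these data known. Named genes are the members, 6 neighbours per side, the complex and transporter families, the 2 highest and 2 lowest of each list with 100 or more counts, and the 3 nearest in level; of these, those bearing on the members are given, and 1 listed gene is not reported here. Promoter motifs, the antisense gene, and genes named beyond this rule were chosen after their values were seen. Alternatives included DESeq2 1.42.0 size factors.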

Additional observations from a re-analysis of the deposited data

How the results depend on the processing

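The directions of G6pc2 and Spc25 held under all 8 alternatives tried for each. For both genes 1 of the 8, the restriction to transcripts free of exon overlap, kept every transcript and so could not differ. A pseudocount of 5 and thinning could hardly move genes with counts this high. G6pc2 moved to -0.54 with total counts, -0.47 with total counts without hormone genes and -0.74 by TPM, and Spc25 to -2.27, -2.20 and -2.37 under the same settings. Abcb11 kept its direction under 7 of 8, from -2.39 to -0.19 (TPM), where the added 1 TPM exceeds both levels. It reversed to 0.89 with only the transcript free of exon overlap, which leaves 7 counts. The number of genes at least 2-fold apart was 1946, against 1200 by TPM, 2987 with 20 or more counts and 6850 with no filter. Shares of the main transcript by expected counts were 50.61% in CAST and 66.47% in B6 for G6pc2-202, 95.71% in CAST for Spc25-201, and 72.11% in CAST and 97.79% in B6 for Abcb11-202, against 23.41% in CAST and 83.94% in B6 by TPM. By counts Spc25-202, with 48.55%, exceeded Spc25-201 in B6, with 44.21%. DESeq2 size factors, a pseudocount of 5, thinning and a stricter filter for TMM moved G6pc2 and Spc25 by 0.01 or less. No paired analysis was possible because each strain has 1 library. Depth limits Abcb11 and the minor transcripts, and 1 library per strain limits every difference.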
